A study of Mus musculus with 1 sample.

Results

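The early Cebpe cells described here were 455 of the 7645 bone marrow cells kept from 1 single-cell RNA-seq library, a share of 5.95% (exact 95% interval 5.43 to 6.51) that the sort and the depth limits also set. They were chosen by their own transcript counts, given as unique molecular identifiers (UMIs), the tags that tell captured molecules apart from their amplified copies. A cell had to hold Cebpe at 3 UMIs or more, S100a8 under 20, Car1 under 5 and no UMI of Epx, Prss34 or Fn1. Every value of Cebpe, S100a8, Epx, Prss34, Fn1 and Car1 is therefore a product of the choice and is given as a description only. Mpo was used only to choose the cells they are compared with, and its values are given as a description too. The library was made from Lin- cKit+ (LK) cells of femora and tibiae, which hold blood stem cells and the progenitors of all blood lineages, and no other sample or cell type of the study is used. The mice were of the C57BL/6 strain and carried floxed Brd9 (CD45.2(+) Brd9fl/fl, the control) without the Cre deletion. They had received 20 mg/kg of polyinosinic-polycytidylic acid (pIpC), an inducer of interferon, every other day for 3 doses, and cells were prepared 8 weeks later. The sample labels name a donor and a CD45.1(+) CD45.2(-) recipient with pIpC given after transplantation, whereas the series text names primary mice injected 4 weeks after birth, and which applied was not settled. The paper gives a later age at injection for its primary mice, so the age of the mice was not settled either. The number of mice behind the library was not given in the sources used here, and the Brd9-deleted library was not analysed here.

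Cebpe encodes C/EBP-epsilon, a transcription factor that myeloid progenitors turn on as they commit to granulocytes and that is needed for the genes of the later granules. Neutrophils build their granules in waves. Promyelocytes make the primary (azurophil) granules, which carry myeloperoxidase (Mpo) and the serine proteases elastase (Elane), proteinase 3 (Prtn3) and cathepsin G (Ctsg), and myelocytes and later stages make the specific and gelatinase granules with lactoferrin (Ltf), cathelicidin (Camp), neutrophilic granule protein (Ngp) and Mmp9. S100a8 and S100a9 form calprotectin, the main cytosolic protein of mature neutrophils. Gfi1 represses monocyte genes in granulocyte precursors, while Irf8 and Klf4 direct monocytes and dendritic cells.

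With 1 library there was no replicate, so no test was run and no difference between groups of cells can be set against a spread between animals. A level is the summed UMIs of a group of cells per 1000000 of its UMIs (CPM) with an exact 95% Poisson interval, and a fold is the ratio of such levels with an exact conditional interval. All intervals cover counting error only, and the cells of 1 library are not replicates of each other. A gene was counted as higher or lower when its fold was 2 or more in that direction and both groups together held 50 UMIs or more of it. The early Cebpe cells had a median of 22232 UMIs and 4304 genes per cell, between 2586 and 47840 UMIs, and summed to 10592057 UMIs. All kept cells had a median of 18696 UMIs and 4171 genes. Because the choice rests on whole UMIs, it reached few shallow cells: of the 3 equal groups of kept cells by depth, the shallowest held 20 early Cebpe cells of 2548 (0.785%), against 228 of 2548 (8.95%) in the middle one and 207 of 2549 (8.12%) in the deepest. Doublet calls marked 11 early Cebpe cells (2.42%), 120 cells of the Mpo reference described further down (6.43%) and 265 of all kept cells (3.47%).

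Of the kept cells, 811 had Cebpe at 3 or more. The limit on Epx took 45 of these, that on Prss34 took 122, that on Fn1 took 7 and that on Car1 took 14, and the limit on S100a8 split the remaining 623 into 455 early Cebpe cells and 168 S100a8-high cells. Cebpe itself stood at exactly 3 UMIs in 110 early Cebpe cells, at 4 in 75, at 5 in 83 and at 6 or more in 187, with a median of 5 and a maximum of 22. S100a8 was at 0 UMIs in 199 of them and had a median of 1. Mpo, which the rule did not ask of them, ran from 22 to 301 UMIs with a median of 165, so each of the 455 also passed the Mpo limit of the reference cells.

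**Figure D1:**
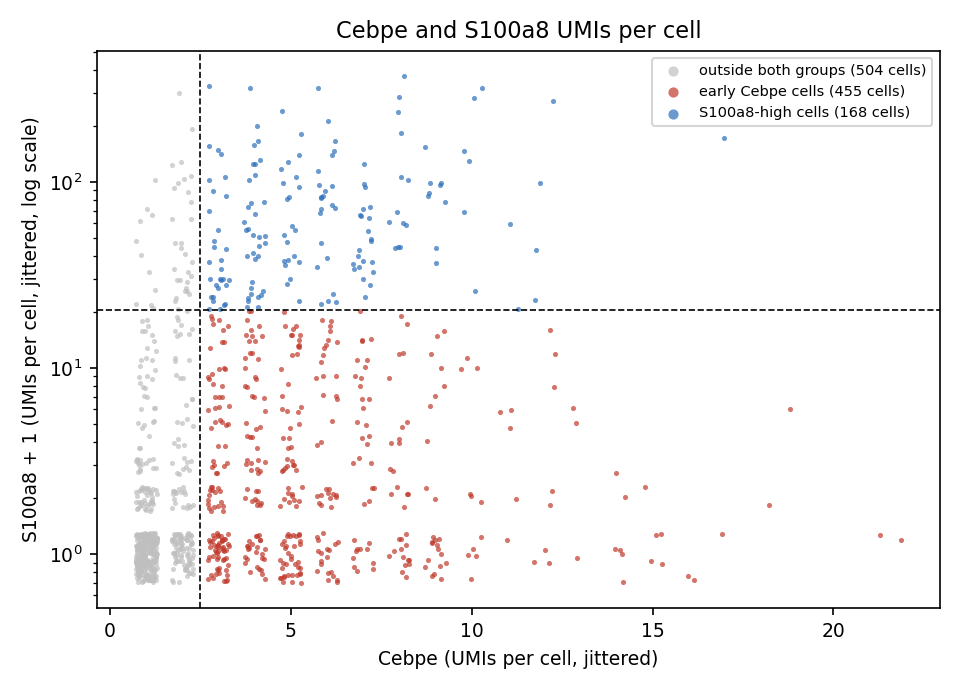
Cebpe UMIs per cell (horizontal axis) against S100a8 UMIs per cell plus 1 (vertical axis, log scale), with a small random shift so that points do not hide each other, for cells that met the limits on Epx, Prss34, Fn1 and Car1 and held a Cebpe UMI. Dashed lines mark the limits of 3 Cebpe UMIs and 20 S100a8 UMIs; the 455 early Cebpe cells fill the lower right field, 199 of them at 0 S100a8 UMIs, and the 168 S100a8-high cells lie above them with no gap at the limit.

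The cells were checked against Elane, Prss57 and Gfi1, which the rule did not use. Elane was found in 455 of 455 cells, Prss57, a serine protease of primary granules, in 448 (98.5%) and Gfi1 in 329 (72.3%). All 3 were present beside Cebpe in 326 cells (71.6%), 2 of them in 125 and 1 in 4. After each cell was thinned at random to 5000 UMIs, Elane was detected in 100% of the early Cebpe cells, Prss57 in 79.3% and Gfi1 in 25.1%. In 1158 Cebpe-negative cells with Car1 at 20 UMIs or more, which are of the erythroid side, the same shares were 21.3%, 2.85% and 0.345%, at a median depth of 32846 UMIs before thinning. Before thinning, Elane was also found in 1743 of the 1865 Mpo reference cells (93.5%), Prss57 in 1193 (63.97%) and Gfi1 in 401 (21.5%). In the 168 S100a8-high cells they were found in 168, 168 and 126 (75%). The presence of these markers was therefore not particular to the early Cebpe cells. Their shares stood above those of the erythroid side and went with the label of neutrophil progenitors. An exception is described further down: some cells also held transcripts of basophils, mast cells or eosinophils.

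The cells just inside and just outside each limit were alike in some genes and not in others. The 135 cells with Cebpe at 2 had Elane at 8498 CPM and Irf8 at 197 CPM, and the 110 cells with Cebpe at 3 had 10545 CPM and 85.7 CPM. The 62 cells with S100a8 from 10 to 19 had Elane at 16231.5 CPM, and the 38 S100a8-high cells from 20 to 29 had 16224 CPM. The 80 cells that failed on Prss34 alone had Elane at 9818 CPM and Gfi1 at 64.8 CPM, close to the 10944 CPM and 65.0 CPM of the early Cebpe cells, but Mcpt8 at 158 against 43.3 CPM. A Prss34 UMI was also found in 269 (23.2%) of the Car1-high cells. The 24 cells that failed on Epx alone stood further away, with Cebpe at 535 CPM, Elane at 3822 CPM and Prg2, the major basic protein of eosinophils, at 17510 CPM. The Car1 limit removed 13 cells and the Fn1 limit 4 on their own.

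The question put to the early Cebpe cells was how they differed from Cebpe-negative cells that already expressed Mpo. The Mpo reference named by the rule held 1865 cells with Cebpe at 0 and Mpo at 20 UMIs or more (median 21535 UMIs and 4428 genes). It was a mixture: Prss34 was found in 459 of its cells with up to 898 UMIs. Igkc, an antibody gene, was at 5 UMIs or more in 1 cell only, 1 of the 10 cells that held 94.7% of its UMIs. A limit-matched reference of 1218 of these cells (median 21996.5 UMIs) met the limits on S100a8, Epx, Prss34, Fn1 and Car1 as well and is given beside it. Against the Mpo reference, 207 of 11388 genes (1.82%) were higher and 991 (8.7%) lower in the early Cebpe cells, and the median fold of all genes was 0.894 (-0.16 on the log2 scale). Against the limit-matched reference, 227 of 10855 genes (2.09%) were higher and 689 (6.35%) lower, with a median fold of 0.912. These counts come from the contrast that chose the cells, so the lists that follow are read as descriptions beside them.

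Most primary granule genes were higher in the early Cebpe cells, and Ctsc and Lyz2 were lower. Of 12 measured list genes other than Mpo, 7 were 2-fold or more higher and 2 lower than in the Mpo reference (background 1.82% and 8.7%), with a median fold of 2.13, and 8 and 2 of 12 against the limit-matched reference (background 2.09% and 6.35%), with a median of 2.15. Elane ran from 3 to 664 UMIs per early Cebpe cell with a median of 252, and from 0 to 557 with a median of 40 in the Mpo reference. The ranges overlapped, while the medians stood far apart. Its level was 10944 CPM (10881 to 11007.5) against 3096 CPM, a fold of 3.54 (3.51 to 3.56), and 3.14 over the limit-matched reference. Ctsg had a median of 140 UMIs per cell against 56, and 6138 against 2805 CPM, a fold of 2.19 (2.17 to 2.21). Prtn3 had a median of 189 UMIs per cell against 87, and at 8592 against 4330 CPM its fold of 1.98 (1.968 to 2.0001) lay just under the limit. Prss57 was at 371 CPM against 84.2 CPM, a fold of 4.41 (4.22 to 4.62). Ms4a3, a membrane protein gene of granulocyte and monocyte progenitors, was at 1840 against 503 CPM (3.66-fold). Srgn, whose proteoglycan packs proteases into granules, was at 3208 against 1197 CPM (2.68-fold).

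The genes of this list did not all go the same way. Lyz2, the lysozyme gene shared with monocytes, was at 99.9 CPM against 502 CPM, a fold of 0.199 (0.187 to 0.211). Ctsc, whose protease activates elastase, proteinase 3 and cathepsin G, was at 32.1 against 70.3 CPM, a fold of 0.456 (0.407 to 0.511). Cd63, a tetraspanin of granule membranes, was 3.05-fold over the Mpo reference and 7.66-fold over the limit-matched one, in which its level was 94.8 CPM. Of 6 measured protease inhibitors 1 was higher and 0 lower than in the Mpo reference (background 1.82% and 8.7%), and 1 higher and 1 lower than in the limit-matched one (2.09% and 6.35%). Serpinb1a, which blocks the granule serine proteases, was at 577 against 265 CPM (2.17-fold), and Slpi was at 277 against 553 CPM (0.501-fold, and 0.477-fold over the limit-matched reference).

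Elane and Prtn3 are neighbours on chromosome 10 (GRCm38, GENCODE M21). Prtn3 spans chr10:79874476-79883174 and Elane chr10:79886247-79888215, both on the plus strand and 3072 bases apart. Cfd follows Elane at a distance of 2637 bases, and its level was 0.0944 CPM from 1 UMI, where 3 UMIs would be 0.283 CPM. Prss57 lies on the minus strand 83514 bases before Prtn3. Ctsg lies at chr14:56099881-56102574 on the minus strand, 14607 bases from the basophil protease gene Mcpt8, which was at 43.3 CPM in the early Cebpe cells against 855 CPM in the Mpo reference and 35.2 CPM in the limit-matched one. Physical neighbours thus included genes with unlike levels in these cells.

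Promoters are shown for 5 granule genes because Elane, Prtn3, Ctsg and Ms4a3 were high in the early Cebpe cells together and Mpo marked the reference. They come from RefSeq windows of 300 bases on GRCm38.p6 (250 before and 50 after the annotated start), which held 6 of 9 genes looked up and not Cebpe, Prss57 or Wfdc21. The stretches shown stop before the first base of any GENCODE exon of the gene, read 5' to 3' on the gene's strand, and mark in capitals each match on either strand to GAGGAAG (a PU.1 motif) or TTNNGNAA (a C/EBP motif).
Elane: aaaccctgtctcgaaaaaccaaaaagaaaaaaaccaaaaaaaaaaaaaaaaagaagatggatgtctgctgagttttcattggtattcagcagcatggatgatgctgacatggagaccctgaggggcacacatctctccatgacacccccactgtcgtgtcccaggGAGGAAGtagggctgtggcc
Prtn3: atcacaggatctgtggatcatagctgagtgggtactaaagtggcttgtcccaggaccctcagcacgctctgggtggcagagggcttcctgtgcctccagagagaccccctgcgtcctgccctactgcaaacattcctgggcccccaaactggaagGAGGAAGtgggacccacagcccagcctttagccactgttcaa
Ctsg: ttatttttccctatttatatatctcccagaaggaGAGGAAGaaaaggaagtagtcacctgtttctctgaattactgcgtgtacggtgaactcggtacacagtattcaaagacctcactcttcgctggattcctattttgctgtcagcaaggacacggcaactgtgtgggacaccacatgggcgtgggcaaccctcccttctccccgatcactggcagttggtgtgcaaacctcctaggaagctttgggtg
Ms4a3: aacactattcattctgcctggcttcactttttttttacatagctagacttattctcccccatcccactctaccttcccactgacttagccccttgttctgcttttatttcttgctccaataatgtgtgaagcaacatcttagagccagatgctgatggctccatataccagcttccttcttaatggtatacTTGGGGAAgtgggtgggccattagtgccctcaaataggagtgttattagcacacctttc
Mpo: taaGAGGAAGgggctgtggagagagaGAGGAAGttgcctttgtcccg
They lie at chr10:79886062-79886246 (Elane, plus strand), chr10:79879417-79879613 (Prtn3, plus), chr14:56102575-56102824 (Ctsg, minus), chr19:11640852-11641101 (Ms4a3, minus) and chr11:87793534-87793580 (Mpo, plus).

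GAGGAAG was matched on the sense strand in Elane, 78 bases before the RefSeq start, in Prtn3, 88 bases before it, and in Ctsg, 209 bases before it, and 2 times in Mpo, 240 and 217 bases before it. The windows of Elane, Prtn3, Ctsg and Mpo held no TTNNGNAA, whereas Ms4a3 held a match 51 bases before the start and another beyond the stretch shown. TAACNG, a MYB motif, was matched in the windows of Elane and Mpo at bases not shown. Among all 32851 windows of 300 bases, 13.6% held GAGGAAG, 40.7% held TTNNGNAA and 23.3% held TAACNG. For 13 windows of 12 primary granule genes the counts were 6, 7 and 2. A match describes letters and not binding, and the motifs were not tested for enrichment.

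The later granule genes were mixed, with a summed level of 897 CPM against 499 CPM in the Mpo reference (ratio 1.80, 1.75 to 1.84) and a ratio of 2.04 over the limit-matched one. Of 10 measured list genes, 4 were higher and 3 lower than in the Mpo reference (background 1.82% and 8.7%), with a median fold of 1.19, and 4 higher and 3 lower than in the limit-matched reference (2.09% and 6.35%), with a median of 1.46. Wfdc21, a whey acidic protein gene, was found in 202 early Cebpe cells, at 65.3 CPM against 2.76 CPM, a fold of 23.7 (19.4 to 29.1). After thinning it was detected in 22.5% of them, against 0.912% of the Mpo reference and 0.432% of the Car1-high cells. Pglyrp1, a peptidoglycan-binding protein of granules, was at 277 against 32.7 CPM (8.49-fold). Lcn2, the siderophore-binding lipocalin, was at 39.9 against 18.6 CPM (2.15-fold), a fold that lay under 2 in 4 alternatives, with 1.95 at Cebpe of 2 or more, 1.96 without the limits on Epx, Prss34, Fn1 and Car1, 1.77 after thinning and 1.93 as a mean over cells. S100a9 was at 6.23 CPM (40 of 455 cells) against 1.36 CPM, though the limit on its partner S100a8 bears on it. Other genes of the list were near or at the floor. Camp had 5 UMIs, Ngp had 6, and Ltf, Mmp8, Mmp9 and Olfm4 had none in all 455 cells, where 3 UMIs would be 0.283 CPM. Mmp8 was at 5.04 CPM in the Mpo reference, so its level here was at least 17.8-fold lower.

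Among 23 measured transcription factors other than Cebpe, 1 was higher and 6 were lower than in the Mpo reference (background 1.82% and 8.7%), and 1 of 22 higher and 5 lower than in the limit-matched reference (2.09% and 6.35%). Gfi1 was the higher one, at 65.0 CPM (0 to 8 UMIs per cell, median 1) against 13.01 CPM, a fold of 5.001 (4.46 to 5.61). Myb, the progenitor regulator, was at 506 against 255 CPM, a fold of 1.99 (1.92 to 2.05) that stayed under the limit. Irf8 was at 50.1 CPM against 482 CPM, a fold of 0.104 (0.0953 to 0.113), and Klf4 at 3.12 against 73.2 CPM (0.0425-fold). Runx1 and Zeb2 had folds of 0.438 and 0.441. Gata2 was at 16.1 CPM against 66.1 CPM in the Mpo reference but 18.3 CPM in the limit-matched one. The other C/EBP factors had folds of 0.716 (Cebpa), 0.686 (Cebpb), 1.0005 (Cebpd) and 0.634 (Cebpg), and Spi1, which encodes PU.1, 0.903.

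All 10 monocyte or dendritic genes were 2-fold or more lower than in either reference (background 8.7% and 6.35%), with median folds of 0.0995 and 0.0935. The summed level of the list per cell had a median of 97.0 CPM in the early Cebpe cells and 1987 CPM in the Mpo reference, and it was 0 in 69 of the former and 56 of the latter. F13a1, the coagulation factor XIII A chain made by monocytes, was at 44.5 against 466 CPM, Ms4a6c at 78.2 against 522 CPM and Ccr2, the receptor that draws monocytes from marrow, at 8.87 against 115 CPM. The sum reached 500 CPM in 45 early Cebpe cells (9.89%) and in 1420 cells of the Mpo reference (76.1%). After thinning, Irf8 was detected in 11.9% of the early Cebpe cells, 70.1% of the Mpo reference and 6.39% of the Car1-high cells, and Klf4 in 0.881%, 22.9% and 1.64%, so for Klf4 the share was at or below the background of cells that should lack it.

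Among cytokine receptors and surface genes, 0 of 21 were higher and 8 lower than in the Mpo reference (background 1.82% and 8.7%), and 0 and 6 against the limit-matched one (2.09% and 6.35%). Csf3r, the G-CSF receptor, was at 41.6 against 23.9 CPM (1.74-fold) and Fcgr3 at 136 against 90.9 CPM (1.497-fold). Csf1r, the M-CSF receptor, was at 10.3 against 58.1 CPM (0.177-fold), Il6ra at 14.6 against 50.4 CPM (0.291-fold) and Flt3 at 5.95 against 28.5 CPM (0.208-fold). Kit, used in the sort, was at 73.5 against 60.4 CPM (1.22-fold), and Cd34 at 104 against 180 CPM (0.576-fold).

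**Figure D2:**
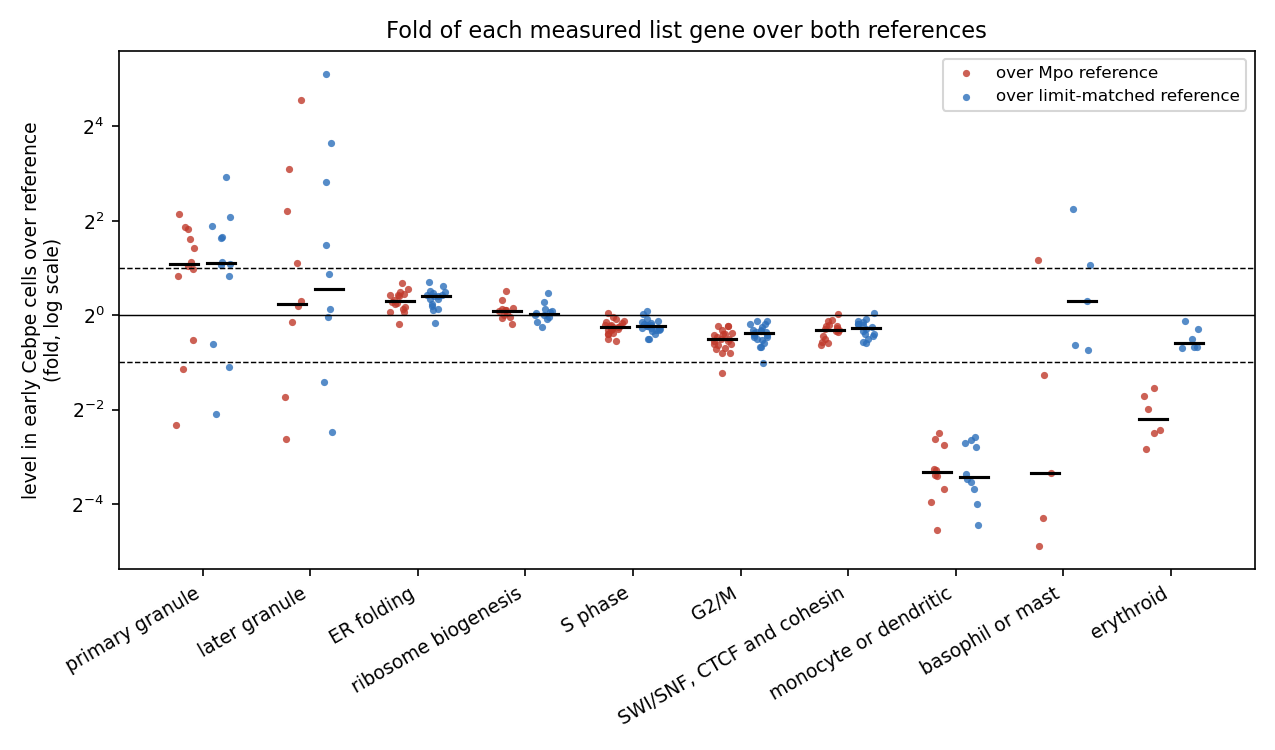
Fold of each measured list gene (points, log scale) in the early Cebpe cells over the Mpo reference (red) and over the limit-matched reference (blue), with list medians as black bars and folds of 1, 2 and 0.5 as lines; Mmp8, at 0 UMIs in the early Cebpe cells, is not drawn. The 10 monocyte or dendritic genes lie below 0.5 over both references, while 4 of 5 basophil or mast genes (all but Hdc) and the 6 erythroid genes lie below 0.5 over the Mpo reference and none over the limit-matched one, with medians of 0.0992 and 0.219 against 1.23 and 0.667 over the limit-matched one.

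Genes of proliferation were lower in sum, those of G2/M more so than those of S phase. None of 21 S phase genes passed a fold of 2 in either direction, their median fold was 0.838 and their summed level was 2177 against 2614 CPM (ratio 0.833, 0.821 to 0.845). Of 21 G2/M genes, 1 was lower and 0 higher (background 8.7% and 1.82%), the median fold was 0.702 and the sum was 1555 against 2329 CPM (ratio 0.667, 0.656 to 0.679). All 21 had a fold and an interval below 1 over both references. The median fold of all genes was 0.894, so the S phase median of 0.838 lies near it and the G2/M median of 0.702 further below. Mki67, the proliferation marker, was at 121 against 285 CPM (0.425-fold), and Top2a at 209 against 366 CPM (0.571-fold). The G2/M sum per cell had a median of 1060 CPM and a maximum of 7734 CPM in the early Cebpe cells, and 1548 and 11277 CPM in the Mpo reference, so the groups overlapped almost throughout. Of 9 cyclin and inhibitor genes, 3 were lower (background 8.7%), namely Ccnd1 at 13.5 against 47.8 CPM (0.282-fold), Cdkn2c (0.394-fold) and Cdkn2d (0.499-fold). Cdkn2d lay just past the limit and was 0.581-fold over the limit-matched reference, where 2 of 9 were lower (background 6.35%). Cdk6 was at 404 against 380 CPM (1.07-fold).

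None of the genes listed for protein folding passed a fold of 2. Of 16 genes for protein folding in the endoplasmic reticulum, 15 had a fold above 1 and 1 below it at 0.879, with a median of 1.24 against the 0.894 of all genes and a summed level of 8374 against 6432 CPM. Sdf2l1, a chaperone cofactor, was at 326 against 202 CPM (1.61-fold), and Calr, the lectin chaperone calreticulin, at 1807 against 1318 CPM (1.37-fold). Fkbp11, another folding factor that was not on the list but among the highest folds, was at 154 against 39.3 CPM (3.92-fold). The 12 ribosome biogenesis genes had a median of 1.07 with none past the limit. Of 8 nuclear envelope genes, 1 was higher and 1 lower (background 1.82% and 8.7%), and 7 had folds below 1. The higher one was Sun2, which links the nucleus to the cytoskeleton, at 118 against 46.3 CPM (2.54-fold). The lower one was Lmna, the gene of lamin A and C, at 1.98 against 8.99 CPM (0.221-fold), but its fold over the limit-matched reference was 0.785.

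Brd9, the gene floxed in these control mice and here not deleted, was at 27.1 CPM (24.1 to 30.4) in the early Cebpe cells and 34.3 CPM in the Mpo reference, a fold of 0.790 (0.693 to 0.897). Of 16 genes of SWI/SNF, CTCF and cohesin, 0 passed the limit in either direction, and their median fold was 0.810. Of 6 NADPH oxidase genes only Cybb was past the limit (lower, background 8.7%), at 14.2 against 67.0 CPM (0.211-fold). Of 10 measured interferon response genes, 2 were lower (background 8.7%), Rsad2 and Ifi27l2a, and the median fold was 0.708.

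Across all genes at 50 CPM or more in the higher group, and leaving out mitochondrial and ribosomal genes, the 12 highest folds over the Mpo reference belonged to Wfdc21, Pglyrp1, B4galt6, Rgcc, Gfi1, Prss57, Fkbp11, Nkg7, Ms4a3, Vat1, Fgl2 and Elane. Rgcc, a regulator of the cell cycle, was at 453 against 87.0 CPM (5.21-fold), and Nkg7, a granule membrane protein gene best known from cytotoxic cells, at 1058 against 274 CPM (3.86-fold). All 12 had a fold of 3.14 or more over the limit-matched reference too. The 12 lowest were Ighg2c, Ahnak, Fcer1a, Klf4, Lgals3, Igkc, Mcpt8, S100a4, Ctss, Pld4, Ccr2 and S100a6. Of these, Ighg2c, Igkc, Fcer1a and Mcpt8 were not 2-fold lower than the limit-matched reference, with folds of 0.737, 0.855, 0.603 and 1.23, and the rest had folds of 0.0912 or less over it.

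**Figure D3:**
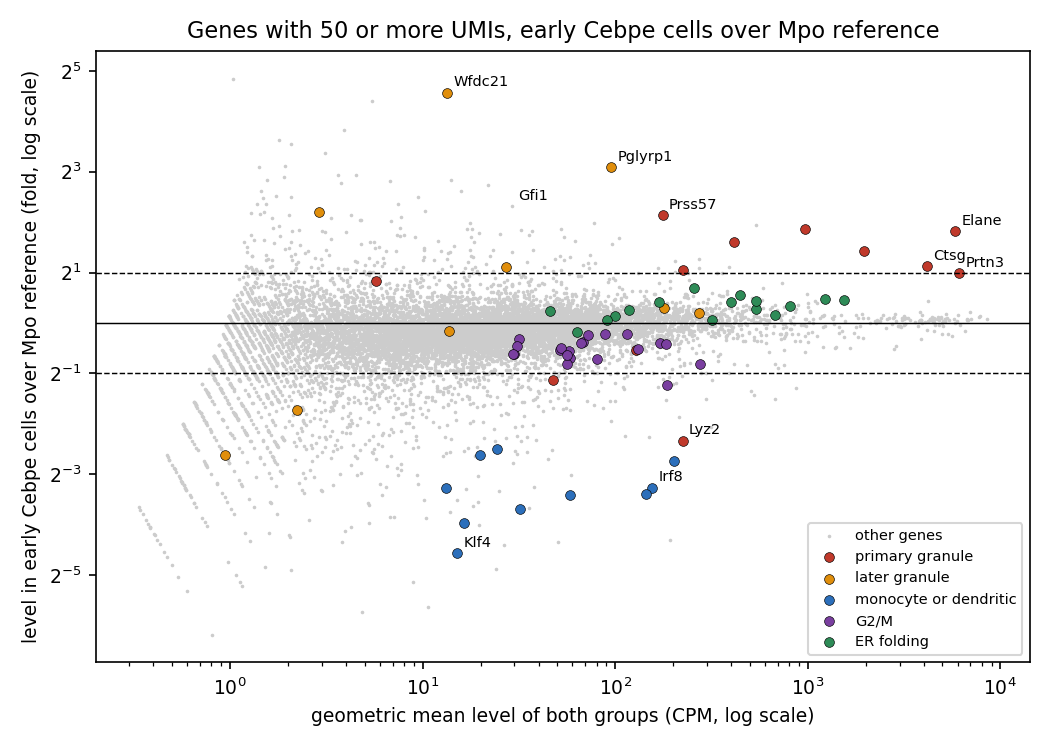
Fold of the early Cebpe cells over the Mpo reference (vertical axis, log scale) against the geometric mean of both levels in CPM (horizontal axis, log scale) for genes with 50 or more UMIs in both groups together, with 5 gene lists in colour and dashed lines at folds of 2 and 0.5. Genes at 0 UMIs in either group are not drawn; Elane lies at 3.54-fold and Prss57 at 4.41-fold among the primary granule genes, and the monocyte or dendritic genes lie below 0.5, down to Klf4 at 0.0425-fold.

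The S100a8-high cells, with the same limits but S100a8 at 20 or more, extended the series. There were 168 of them with a median of 19256 UMIs and 3709.5 genes, and 1698 genes at 5000 UMIs against 1804.5 in the early Cebpe cells. Of 9134 genes, 532 (5.82%) were 2-fold or more higher and 74 (0.81%) lower in the early Cebpe cells, with a median fold of 1.15 (0.20 on the log2 scale). On the split of calls the scaling mattered: 87.8% of them were higher with CPM, and 74.8% when folds were divided by their median. Of 12 primary granule genes 1 was lower (background 0.81%), with a median fold of 0.732, and Elane was at 10944 against 19385 CPM (0.565-fold). Of 8 later granule genes 6 were lower (background 0.81%), with a median of 0.410, and the 6 were S100a9, Camp, Wfdc21, Mcemp1, Pglyrp1 and Hp. The fold of Hp, 0.478, was 0.509 in cells of 15000 to 30000 UMIs. It was 0.516 without the early Cebpe cells high in basophil, mast or eosinophil genes. S100a9, the partner of a gate gene, was at 6.23 against 789 CPM (0.0079-fold), Camp at 0.472 against 24.0 CPM (0.0196-fold) and Wfdc21 at 65.3 against 412 CPM (0.158-fold). Outside this list, Fcnb, the ficolin of granules, was at 7.65 against 114 CPM (0.067-fold) and Vcam1 at 25.1 against 130 CPM (0.194-fold).

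Genes higher in the early Cebpe cells than in S100a8-high cells included the progenitor marker Cd34. The 10 with the highest folds were Cpa3, Cd34, Ifitm1, Adgrg1, Sox4, Apoe, Fabp5, Ifitm3, Adgrl4 and Bmyc. The place of Cpa3 rested on a minority of cells: it was at 107 CPM, but at 25.4 CPM without 55 cells described further down. That is under the 50 CPM asked of genes in this ranking. Cd34 was at 104 against 11.1 CPM (9.32-fold, 6.72 to 13.3), and Sox4 at 136 against 30.7 CPM (4.43-fold). Of 20 transcription factors 6 were higher and 1 lower (background 5.82% and 0.81%), among them Hoxa9 at 18.2 against 2.70 CPM and Irf8 at 50.1 against 18.3 CPM. All 12 ribosome biogenesis genes had folds above 1, with a median of 1.38 against 1.15 for all genes and none at 2.

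The early Cebpe cells were themselves graded along S100a8. In the 199 cells at 0 UMIs of S100a8, Elane was at 7990 CPM, in the 138 cells at 1 to 4 at 11240 CPM and in the 118 cells at 5 to 19 at 15701 CPM. The S100a8-high cells continued this, with 18536 CPM in the 127 cells at 20 to 99 and 22013 CPM in the 41 cells at 100 or more. No interval of these levels met the next. Prtn3 went from 5611 CPM at 0 to 12932 CPM at 5 to 19, a fold of 2.30 (2.27 to 2.34), against 1.97 for Elane, 1.61 for Ctsg and 1.13 for Mpo. Wfdc21 went from 13.4 to 53.1 and 171 CPM over the same groups, and Ly6c2, the monocyte and granulocyte surface gene, from 319 to 597 and 744 CPM. Cebpe itself was near level at 261, 236 and 253 CPM.

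Other genes ran the opposite way within the 455 cells. Cd34 was at 163, 78.5 and 31.1 CPM at S100a8 counts of 0, 1 to 4 and 5 to 19, Sox4 at 203, 93.1 and 70.8 CPM, and Irf8 at 65.1, 51.6 and 22.5 CPM. Calr went from 1975 to 1501 CPM, and Myc from 113 to 62.2 CPM. Cebpa was at 75.2 and 38.6 CPM at the ends while Cebpb was at 71.1 and 125 CPM and Cebpd at 74.4 and 117 CPM. Depth moved little with these groups, with medians of 22286, 22705 and 21371.5 UMIs. The S100a8 count chose the groups, so these are values along a measured order and not a time course.

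**Figure D4:**
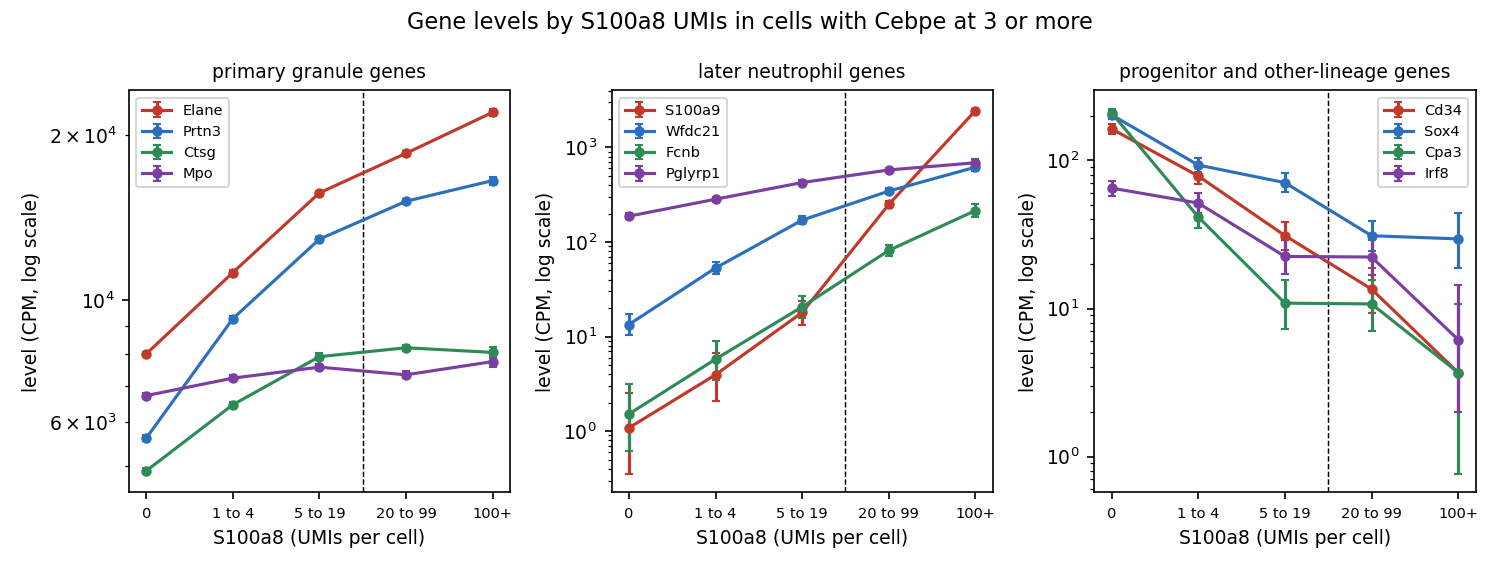
Levels in CPM (log scale) with exact 95% Poisson intervals of 12 genes in cells with Cebpe at 3 or more, grouped by S100a8 UMIs per cell. The 3 groups left of the dashed line (199, 138 and 118 cells) are the early Cebpe cells and the 2 right of it (127 and 41 cells) are the S100a8-high cells; Elane goes from 7990 to 22013 CPM and Cd34 from 163 to 3.69 CPM across them, while Mpo stays between 6710 and 7740 CPM.

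Along Cebpe the picture was different. There were 437 cells with Cebpe at 1 to 2 and Mpo at 20 or more that met the other limits. In some genes, though not in Hp, they lay between the limit-matched reference and the early Cebpe cells. Elane was at 3484, 7260 and 10895 CPM in the reference, in those cells and in the 268 early Cebpe cells at 3 to 5. Irf8 was at 517, 277 and 61.3 CPM and Gfi1 at 14.8, 29.8 and 57.1 CPM in the same order. Above this, the 142 cells at 6 to 9 had Elane at 11587 CPM and the 45 cells at 10 or more had 9453 CPM. The latter also had Cpa3 at 302 CPM, Prg2 at 73.4 CPM and Mcpt8 at 99.8 CPM, against 75.4, 3.44 and 35.9 CPM in the cells at 3 to 5. The Prg2 level rested on few cells, as only 3 of all 455 early Cebpe cells held 10 or more of its UMIs.

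Transcripts of basophils, mast cells and eosinophils were thus present although the rule required no UMI of Epx or Prss34. Of 5 measured basophil or mast genes, 1 was higher and 4 lower than in the Mpo reference (background 1.82% and 8.7%), but 2 (Cpa3 and Hdc) higher and 0 lower than in the limit-matched one (2.09% and 6.35%). Cpa3 was at 51.0 CPM in the limit-matched reference, and at 25.4 CPM in the early Cebpe cells without the 55 cells described further down. The 2 measured eosinophil genes, Prg2 and Prg3, were higher than in both references, but Prg2 was 1.06-fold over the Mpo reference without the same 55 cells. Cpa3, the mast cell carboxypeptidase that early progenitors also express, was found in 153 of the 455 cells and at 5 UMIs or more in 63. After thinning it was detected in 20.48% of the early Cebpe cells, against 3.45% of the Car1-high and 1.79% of the S100a8-high cells. Prg2 was found in 38 cells, of which 10 held 80.8% of its 146 UMIs, and in thinned cells its share of 3.08% stood beside 1.64% in Car1-high cells. Prg3, its homologue, was detected in 3.30% against 0.173%. Hdc, the histamine-making enzyme, was more widely spread: it was found in 398 cells (87.5%), at 118 CPM against 52.0 CPM in the Mpo reference (2.27-fold) and 24.6 CPM in the limit-matched one (4.78-fold). Hdc was also found in 127 of the 168 S100a8-high cells (75.6%), so it was not particular to the early Cebpe cells. Its fold over the Mpo reference lay under 2 without the 55 cells described next (1.94), after thinning (1.67) and as a mean over cells (1.80). The 55 early Cebpe cells (12.1%) in which the summed basophil or mast list or the eosinophil list reached 500 CPM were then left out, a choice made after the data were seen. Without them Cpa3 was at 25.4 instead of 107 CPM, Prg2 at 3.62 instead of 13.8 CPM and Fcer1a at 0.852 instead of 4.44 CPM, whereas Elane was at 11657 instead of 10944 CPM and Hdc at 101 instead of 118 CPM. Cpa3, Prg2, Fcer1a and Hdc belong to the lists that chose these 55 cells, so their falls were set by the choice. The references and the S100a8-high cells were not trimmed in this way, so folds without the 55 cells set a trimmed group against untrimmed ones. The order along S100a8 was also present without the 55 cells, with Elane at 8895 CPM at 0 and 15731 CPM at 5 to 19, and Cd34 at 152 and 30.7 CPM. The part of mixed droplets in this signal was not tested.

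Other lineages left smaller traces. The 6 erythroid genes were all lower than in the Mpo reference (background 8.7%), and none was past the limit over the limit-matched one (background 6.35%), and their summed level was 66.0 CPM in the early Cebpe cells. Pf4, a platelet factor, was found in 68 cells with 88.6% of its UMIs in 10 of them, and after thinning in 4.63% of the early Cebpe cells against 4.40% of the Car1-high cells. Dntt, a lymphoid enzyme, owed 96.9% of its 97 UMIs to 10 cells. Of the 4 stem cell genes, Hlf and Mecom were at 9.72 and 1.89 CPM. Ebf1 and Rag1 were at 0 UMIs.

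**Figure D5:**
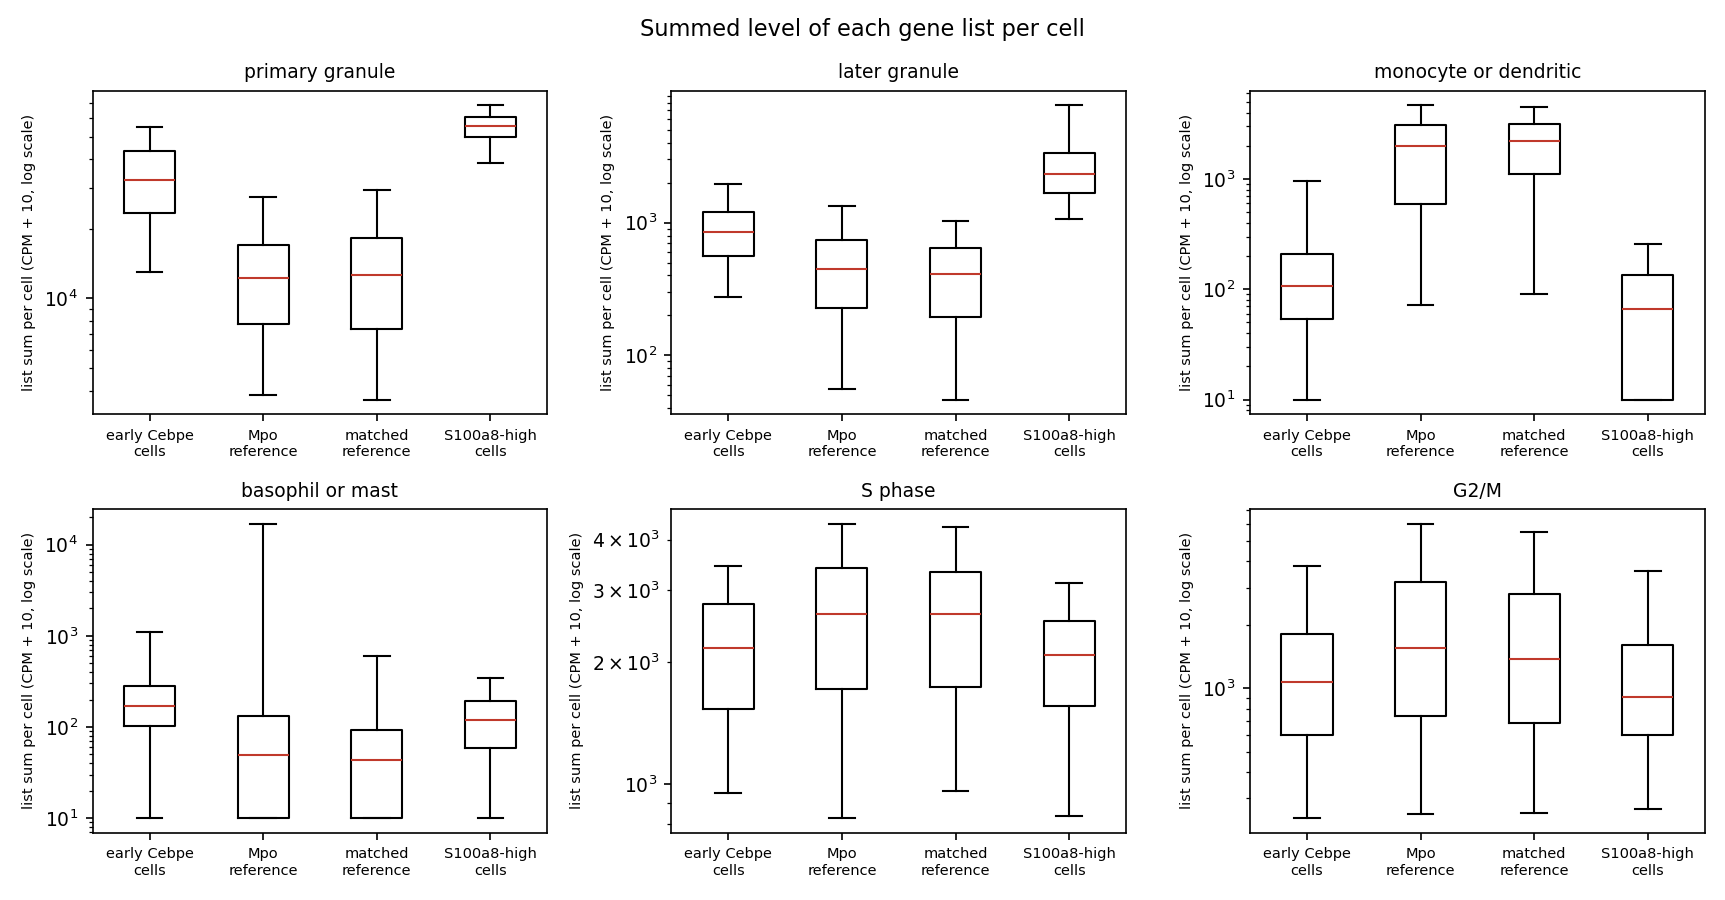
Summed CPM of a gene list per cell plus 10 (vertical axis, log scale) in the 455 early Cebpe cells, the 1865 cells of the Mpo reference, the 1218 of the limit-matched reference and the 168 S100a8-high cells. Boxes span the quartiles with the median in red and whiskers span the central 90 percent of cells; the primary granule median was 32598 CPM in the early Cebpe cells against 12298 CPM in the Mpo reference and 55477 CPM in S100a8-high cells, and the boxes of the S phase and G2/M lists overlap in all groups.

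Variation among the cells was described with a measure that also rises with a gene's level. Among 1308 genes with a mean of 0.5 UMIs or more in 454 cells thinned to 5000 UMIs, the median Fano factor (variance over mean) was 1.06, near the value of counting noise, and 30 genes (2.29%) lay above 2. At a low mean the factor can hardly reach 2: Prss57, at a mean of 1.83 thinned UMIs, had 1.39. The share above 2 therefore does not count the genes that vary. The 10 highest were Gm42418, a gene that overlaps ribosomal RNA, Elane at 14.5, Prtn3 at 11.0, Hist1h1b at 7.40, Cpa3 at 5.23, Hist1h2ap, Hist1h2ae, mt-Co3, Malat1 and Ctsg at 4.31, so that proteases, histones, a mitochondrial transcript, Malat1 and Cpa3 stood side by side. Elane ran from 1 to 162 thinned UMIs per cell with a median of 56 and a coefficient of variation of 50.2%. Mpo ran from 12 to 71 with a median of 35 and a coefficient of 27.5%, although Mpo and Elane were counted in the same cells at the same depth. Over the 454 thinned cells the Spearman coefficient was 0.69 for Elane with Prtn3, 0.69 for Prtn3 with Ctsg, 0.65 for Elane with Ctsg, 0.40 for Elane with Mpo and 0.26 for Prtn3 with Mpo. These cells share 1 library and 1 fixed depth, and the coefficients are given as a description without a test. Elane with Calr had a coefficient of -0.34.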

How the data were processed

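The deposited matrix of raw UMI counts was made by the authors with Cell Ranger 6.0.2 on mm10 and held 8817 barcodes, 32285 genes and 167452386 UMIs from 1 library. The sample labels describe a bulk RNA kit, whereas the matrix layout and the study's methods are those of droplet sequencing. A barcode was kept when its UMIs lay between 1000 and 50000, its detected genes between 1000 and 6500, and mitochondrial transcripts made up less than 7% of its UMIs. The members and the 22 gene lists were chosen with earlier results of these data known. Levels were summed UMIs per 1000000, with exact 95% intervals that cover counting error only, and no test was run because 1 library has no replicate. Genes were compared with 50 or more UMIs in both groups together, and the 7 genes that define the groups were never counted. Named genes were all list genes, the 12 highest and lowest folds over a reference and the 10 over S100a8-high cells, at 50 CPM or more in the higher group. Of 249 distinct list genes, 2 were not matched in the matrix. Scrublet in scanpy 1.11.5, with an assumed rate of 6%, called 265 doublets, which were kept and removed in an alternative. Cells were thinned to 5000 UMIs for shares and variation, leaving out 99 shallower cells, of which 1 was a member, 1 was in the Mpo reference and 0 were S100a8-high or Car1-high. Positions came from GENCODE M21 on GRCm38 and promoters from RefSeq. The computation was tested on simulated data and used Python 3.11.15, numpy 2.4.6, scipy 1.17.1 and matplotlib 3.10.9. Alternatives changed the gene limits, reference, depth, scaling, UMI minimum and doublets. With 1 library, no cell barcodes could be shared between libraries.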

Additional observations from a re-analysis of the deposited data

Results flagged for a closer look

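Among the 1172 barcodes removed by the limits on UMIs, genes and mitochondrial share, which no comparison used, 6 met the limits of the early Cebpe cells on Cebpe, S100a8, Epx, Prss34, Fn1 and Car1. That is 0.512% (exact 95% interval 0.188 to 1.11), an interval that also holds the 0.256% that 3 such barcodes would give. Of these 6, 4 failed the mitochondrial limit, 1 a lower limit and 1 an upper limit. Their summed level was 4745 CPM for Elane, 243 CPM for Prss57 and 271 CPM for Mki67.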

How the results depend on the processing

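No paired analysis was possible because the matrix held 1 library of 1 sample, so no replicate could be left out either. The early Cebpe cells numbered 455 as defined. With Cebpe at 2 or more there were 590, and the ratio to the Mpo reference was 2.35 for the primary granule sum and 1.71 for the later granule sum. With Cebpe at 5 or more there were 270, with ratios of 2.45 (primary) and 0.688 (G2/M). With S100a8 under 10 there were 393, with 2.29 (primary), 1.64 (later) and 0.851 (S phase). With S100a8 under 40 there were 514, with 2.59 (primary) and 1.96 (later), and Lgals3 was 1.98-fold over S100a8-high cells instead of 0.342-fold. With no limit on Epx, Prss34, Fn1 and Car1 there were 604, with 2.32 (primary), 1.75 (later), 0.846 (S phase) and 0.713 (G2/M). Removing doublet calls gave 2.41 (primary). Limits applied to the reference gave 2.37 (primary), 2.04 (later) and 0.733 (G2/M). There Mcpt8 was 1.23-fold and Cpa3 2.10-fold over it, instead of 0.0507-fold and 0.414-fold. Without the early Cebpe cells high in basophil, mast or eosinophil genes, Cpa3 was at 25.4 CPM, against 51.0 CPM in that reference. A reference with Mpo at 40 or more gave 2.26 (primary) and 0.693 (G2/M).

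Thinning gave 2.51 (primary) and 0.645 (G2/M), 118 genes higher than in the Mpo reference, and 256 higher and 35 lower than in S100a8-high cells. Fcer1a was then 0.925-fold over S100a8-high cells instead of 4.92-fold. Leaving out mitochondrial, ribosomal and haemoglobin UMIs gave 2.504 (primary) and 0.846 (S phase). Median-of-ratios scaling gave 2.76 (primary), 2.01 (later), 0.932 (S phase) and 0.747 (G2/M), with 351 genes higher and 118 lower than in S100a8-high cells. The mean over cells gave 2.48 (primary) and 1.74 (later). A minimum of 10 UMIs gave 418 genes higher and 1749 lower than in the Mpo reference and 1298 and 199 against S100a8-high cells, and a minimum of 200 gave 117, 568, 98 and 29.

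The following were added after the data were seen. Cells of 15000 to 30000 UMIs numbered 368, with 1.89 (later) and 0.643 (G2/M). Cebpe at 100 CPM or more gave 505 cells and 0.626 (G2/M). Without the cells high in basophil, mast or eosinophil genes there were 400, with 2.60 (primary), 1.91 (later) and 0.644 (G2/M). Over S100a8-high cells, which were not trimmed, Fcer1a was then 0.944-fold instead of 4.92-fold and Prg2 0.860-fold instead of 3.28-fold. Both genes belong to the lists that chose the cells left out. Of 86 named genes called against the Mpo reference, 59 stayed past the fold in all 18 alternatives, and of 48 against S100a8-high cells 36 did in all 16. Counting error is the only error these data give, and what varies between animals was not measured. Genes under about 3 UMIs in all 455 cells were below what this depth can show.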
